A study of Mus musculus with 4 samples.

Results

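The 6 Ly6 genes Ly6a, Ly6c1, Ly6c2, Ly6e, Ly6d and Ly6g were followed across the cell types of leukemic bone marrow (BM) and spleen, out of 32285 genes in the count matrices. They were chosen by measured UMIs of these same libraries, in which Ly6c1 led T cell groups that differed between libraries, so the levels given here are a description and not a test. Levels were read as unique molecular identifiers (UMIs, the tags that count single captured transcripts) summed over the cells of a marker-gated type in each library. The gates used no Ly6 gene.

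Each tissue gave a control and a hairpin library, named BM-Ctrl and BM-shPrmt9 for BM and likewise for spleen, so that each of the 4 groups holds 1 library. Wild-type C57BL/6J mice, given in the labels as 6 to 8 weeks old, had been transplanted with MA9 cells, a leukemia driven by the MLL-AF9 fusion, that carried either a doxycycline-inducible hairpin against Prmt9 (shPrmt9) or its control (Ctrl). All groups received doxycycline in the drinking water for 7 days. The hairpin is in the leukemia cells, and T and B cells of the host do not carry it. A library comes from a single mouse, so mouse and hairpin cannot be told apart, no difference between the groups has a replicate check, no p is given, and every interval below covers counting error alone.

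Ly6 proteins are small, cysteine-rich domains that a lipid (GPI) anchor holds on the outside of the cell, and many serve as flow cytometry markers of blood cell types. Ly6a encodes Sca-1, the stem cell antigen, which lymphocytes also carry and which interferon induces. Ly6c1 and Ly6c2 encode the Ly-6C antigens that mark inflammatory monocytes and memory CD8 T cells. Ly6g encodes the neutrophil antigen that antibodies to Gr-1 detect. Ly6d marks lymphoid progenitors that turn to the B lineage, and Ly6e, an interferon-stimulated gene, is known for its effects on the entry of viruses into cells.

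All 6 genes lie within 397071 bases of chromosome 15 (build GRCm38, 74762056 to 75159126). Ly6d (ENSMUSG00000034634, 74762056 to 74763620) has 3 exons in its principal transcript, and the others have 4. In order along the chromosome these are Ly6e (ENSMUSG00000022587, 74955051 to 74959905), Ly6a (ENSMUSG00000075602, 74994877 to 74998031), Ly6c1 (ENSMUSG00000079018, 75044018 to 75048830), Ly6c2 (ENSMUSG00000022584, 75108158 to 75111970) and Ly6g (ENSMUSG00000022582, 75155240 to 75159126). Ly6e and Ly6g are transcribed from the plus strand and the other 4 from the minus strand. The coding sequences of Ly6c1 and Ly6c2 are identical at 384 of 393 bases (97.7%), whereas Ly6a, Ly6c1, Ly6c2 and Ly6g are otherwise no closer than 85.2% in any pair. The stretch of coding bases 1 to 300 is shown for this closest pair because both genes were high in different T cell subsets of the spleen, and capitals mark the 7 bases that differ.

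Ly6c1: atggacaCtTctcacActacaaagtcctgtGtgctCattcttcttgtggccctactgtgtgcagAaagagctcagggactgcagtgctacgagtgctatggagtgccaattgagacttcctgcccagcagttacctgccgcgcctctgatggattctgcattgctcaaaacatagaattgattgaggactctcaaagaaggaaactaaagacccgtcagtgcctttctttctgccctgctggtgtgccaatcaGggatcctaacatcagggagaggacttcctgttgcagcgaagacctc
Ly6c2: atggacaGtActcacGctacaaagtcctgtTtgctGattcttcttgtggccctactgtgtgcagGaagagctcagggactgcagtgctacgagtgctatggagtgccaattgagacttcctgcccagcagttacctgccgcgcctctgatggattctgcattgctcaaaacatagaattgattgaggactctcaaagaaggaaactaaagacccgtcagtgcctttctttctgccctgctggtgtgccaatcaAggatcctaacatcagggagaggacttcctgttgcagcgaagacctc

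The libraries count reads from the 3′ end, and there the copies are easier to tell apart. Of 311 windows of 90 bases in the last 400 bases of the Ly6c1 transcript, 35 (11.3%) occur unchanged in Ly6c2, and 0 do so for any other pair with Ly6c1. A read that lies within such a shared window cannot be assigned to either gene.

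The RefSeq promoter table (GRCm38.p6) held 3 of the 6 genes, Ly6c1, Ly6c2 and Ly6g. The most similar pair of Ly6c1 and Ly6c2 windows, each from 250 bases before to 50 after a start site, matched at 214 of 262 aligned bases (81.7%). The 250 bases before the start are shown from the minus strand, with capitals at bases that differ from the other window or lie outside it, since both genes were detected in different cells. The Ly6c1 stretch is chr15:75048838-75049087 and the Ly6c2 stretch is chr15:75111972-75112221.

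Ly6c1: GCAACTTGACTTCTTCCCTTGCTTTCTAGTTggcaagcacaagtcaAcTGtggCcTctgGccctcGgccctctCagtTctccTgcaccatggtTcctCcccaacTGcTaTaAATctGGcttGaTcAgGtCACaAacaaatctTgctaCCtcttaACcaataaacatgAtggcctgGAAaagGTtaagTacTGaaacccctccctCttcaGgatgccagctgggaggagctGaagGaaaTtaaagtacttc
Ly6c2: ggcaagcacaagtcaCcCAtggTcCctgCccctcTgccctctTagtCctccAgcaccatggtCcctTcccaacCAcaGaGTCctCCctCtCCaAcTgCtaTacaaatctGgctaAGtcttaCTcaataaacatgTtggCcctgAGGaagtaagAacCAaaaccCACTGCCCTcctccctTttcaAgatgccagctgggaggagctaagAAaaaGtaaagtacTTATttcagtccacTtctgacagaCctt

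The core of the interferon-stimulated response element and the gamma-activated site TTCNNNGAA were searched on both strands, without overlap between the 2 motifs being excluded. Neither occurred in the 6 promoter windows of these 3 genes, against 3.44% and 8.30% of 32851 promoter windows of the same length. These letters are absent from these windows, and other regulatory sequence was not searched. Windows of the same gene overlap, and at those shares few matches are to be found among so few windows, so this absence says little.

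The libraries held 8648 to 11315 barcodes and 84009744 to 188030429 UMIs, and 79.9% to 92.7% of the cells kept fell into one described gate. Any pair of libraries shared 15 to 35 barcodes, at most 0.405% of the smaller library. Transcripts of 4 Y-linked genes, read over the cells outside the MA9 gate, reached 215 counts per 1000000 UMIs (CPM) in Spleen-Ctrl and 157 in Spleen-shPrmt9 but 0 and 0.0117 in the 2 BM libraries, so tissue cannot be told apart from animal and host sex. Prmt9 itself was 11.4 CPM (95% interval 10.7 to 12.1) in BM-Ctrl MA9 cells and 6.33 (5.85 to 6.84) in BM-shPrmt9 MA9 cells. In spleen MA9 cells it was 18.3 CPM (12.1 to 26.7) and 5.91 (3.96 to 8.49), from 27 and 29 UMIs. Outside the MA9 gate it was also lower in the hairpin libraries, 9.33 against 7.56 CPM in BM and 13.2 against 7.18 in spleen. MA9 cells that the gate missed may be among those cells. The make-up of those cells differed too, with 5908 and 1512 B cells without precursor markers and 149 and 1580 erythroid cells in Spleen-Ctrl and Spleen-shPrmt9. The part of either in this difference was not tested. Groups of at least 30 cells are described below, which gave 43 combinations of type and library. CPM here is a gene's share of all UMIs of the gated cells, and it cannot separate fewer expressing cells from less RNA per cell. The free RNA estimate applies to the library-wide level of the gene the largest share of their own library-wide level that marker transcripts of another abundant type reached in the gated cells. A level is called above this estimate where the lower bound of its exact 95% interval was.

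Ly6c1 was a gene of splenic T cells without a Cd8 UMI. In CD4 T cells of the spleen its level was 304 CPM (95% Poisson interval 283 to 325) in Spleen-Ctrl and 267 (254 to 281) in Spleen-shPrmt9. In T cells with a UMI of neither Cd4 nor Cd8a or Cd8b1, it was 322 (302 to 344) and 286 (272 to 301). These are called T cells without Cd4 or Cd8 below, a name for absent UMIs only. They numbered 462 and 753, beside 421 and 728 CD4 T cells. They may hold CD4 or CD8 T cells whose Cd4 or Cd8 transcripts were not captured, which was not tested. In CD8 T cells of the same libraries Ly6c1 was 18.6 (15.9 to 21.5) and 13.1 (11.2 to 15.2). The next types in order were natural killer (NK) cells of Spleen-Ctrl, at 3.17 CPM, whose interval overlapped that of the type below, and conventional dendritic cells (cDC) of Spleen-shPrmt9, at 9.34, whose interval overlapped those of CD8 T cells and of the type below. A single cell gave 87.5% of the 8 Ly6c1 UMIs in those cDC. In BM the 77 and 46 T cells without Cd4 or Cd8 had 68.5 CPM (45.5 to 99.0) and 27.1 (11.7 to 53.5), and every other BM type was below 3 CPM. CD4 T cells were too few in BM, and are not described there.

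Ly6c2 had the opposite order in CD4 and CD8 T cells of the spleen. T cells without Cd4 or Cd8 had UMIs of both genes. In BM-Ctrl these had 421 CPM of Ly6c2 (360 to 489), with a free RNA estimate of 410. In BM-shPrmt9 they had 458 (384 to 542), with an estimate of 168. In Spleen-Ctrl and Spleen-shPrmt9 they had 104 and 95.1. Ly6c2 was highest in MA9 cells in each of the 4 libraries, with 3688 CPM in BM-Ctrl, 6155 in BM-shPrmt9, 3073 in Spleen-Ctrl and 10480 in Spleen-shPrmt9. Neutrophil progenitors, monocytes and plasmacytoid dendritic cells (pDC) followed in BM-Ctrl, at 2798, 1831 and 1465 CPM, and immature and mature neutrophils were at 924 and 460.1. Among the lymphocytes described in Spleen-Ctrl, Ly6c2 was highest in CD8 T cells, at 443 CPM (430.3 to 457). In CD4 T cells of that library it was 12.97 (9.04 to 18.04). Plasma cells, described in Spleen-shPrmt9 only (42 cells), had 2133 CPM (2047 to 2222), and 1 cell gave 23.5% of those UMIs. Ly6c1 UMIs in MA9 cells of BM came to 0.0155% of the Ly6c2 UMIs in BM-Ctrl and 0.0430% in BM-shPrmt9, against 2340% and 561% in CD4 T cells of the 2 spleen libraries. Whether those few MA9 reads are Ly6c1 transcripts or Ly6c2 reads placed on its copy was not tested.

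**Figure D1:**
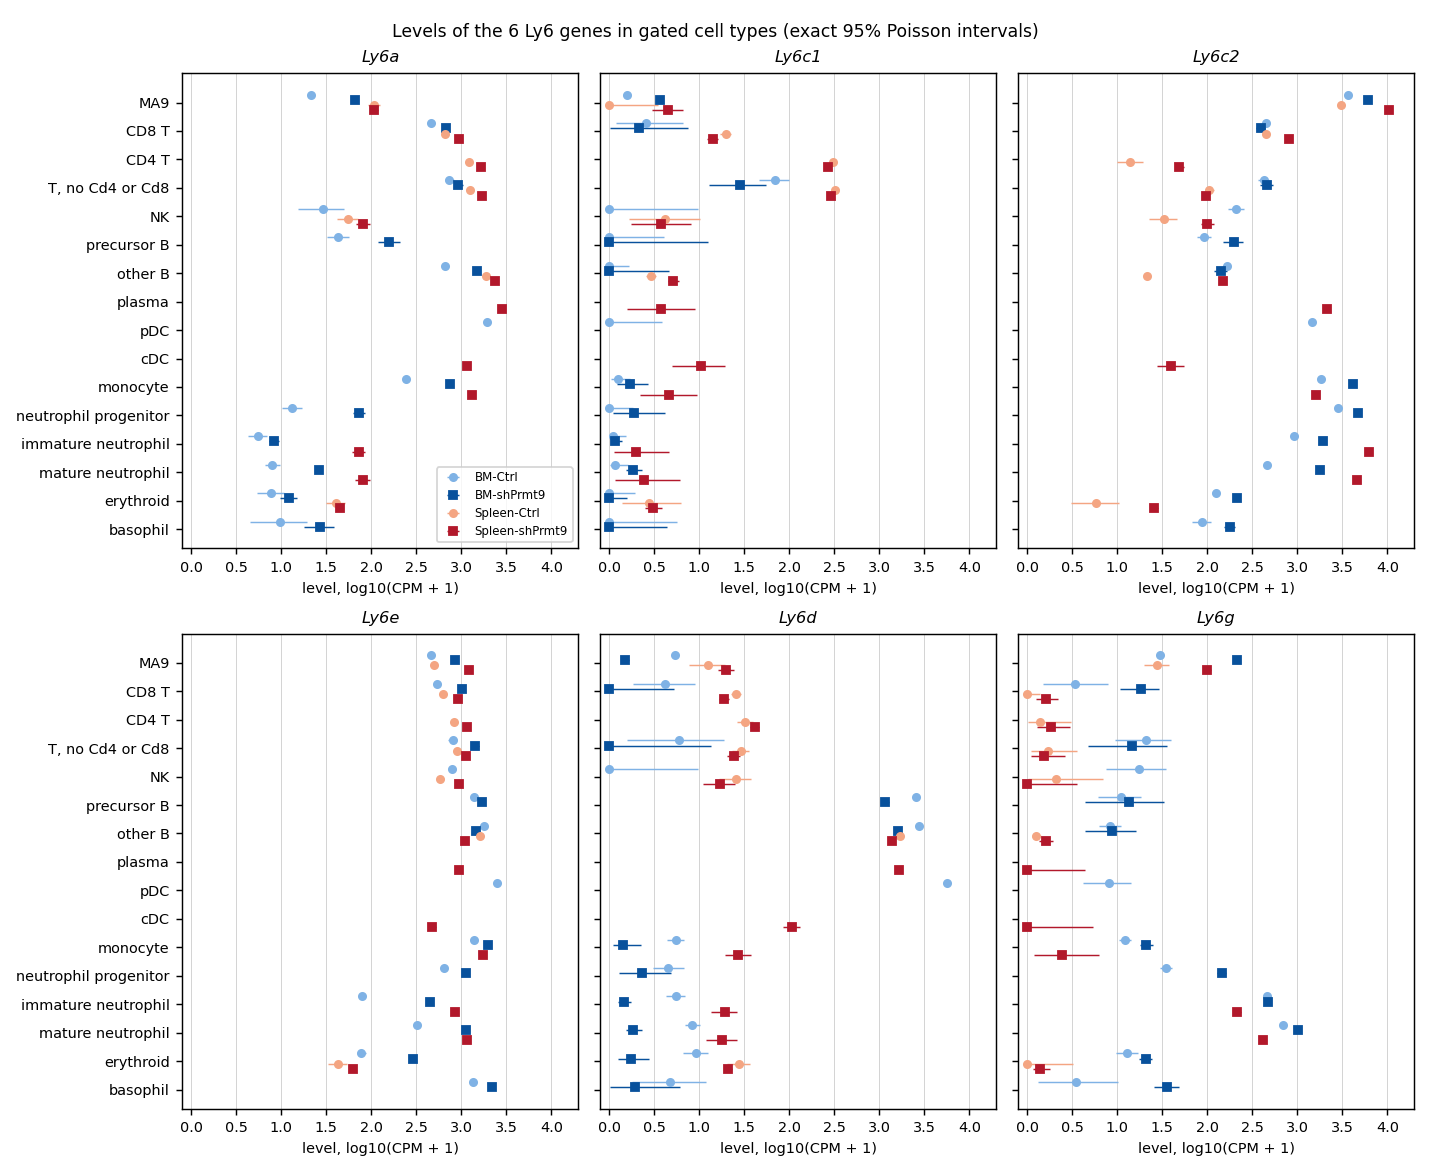
Levels of the 6 genes, as log10 of CPM plus 1 on the horizontal axis, in each gated cell type with at least 30 cells on the vertical axis. Circles are Ctrl and squares shPrmt9 libraries, blues for BM and orange or red for spleen, and bars are exact 95% Poisson intervals. Ly6c1 stands out in T cells without Cd8 (322 CPM at most), Ly6d in B cells and pDC (5692 CPM at most) and Ly6g in neutrophils and, with the hairpin, MA9 cells.

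The split between CD4 and CD8 T cells of the spleen also held cell by cell. After each cell was thinned to 2000 UMIs, 32.1% of the 421 CD4 T cells of Spleen-Ctrl had a Ly6c1 UMI (exact 95% binomial interval 27.6 to 36.8) and 1.66% had a Ly6c2 UMI (0.671 to 3.40). In the 959 CD8 T cells of that library the shares were 2.61% (1.69 to 3.82) for Ly6c1 and 29.6% (26.7 to 32.6) for Ly6c2. In Spleen-shPrmt9 the Ly6c1 shares were 25.8% (22.7 to 29.2) in CD4 and 2.01% (1.26 to 3.02) in CD8 T cells. Those of Ly6c2 were 7.30% (5.50 to 9.47) in CD4 and 41.1% (38.1 to 44.0) in CD8 T cells. As a background for free RNA, Ly6c1 was found in 0.325% of the other B cells (those in the B cell gate without precursor markers) of Spleen-Ctrl and 0.402% of those of Spleen-shPrmt9 at the same depth. For Ly6c2, 0 of 135 thinned erythroid cells of Spleen-Ctrl had a UMI, against 4.84% of those of Spleen-shPrmt9. The intervals of the 2 spleen libraries overlapped for Ly6c1 in CD4 and CD8 T cells, and did not overlap for Ly6c2. At 1000 UMIs the Ly6c2 shares in CD4 T cells were 1.90% (0.824 to 3.71) and 2.61% (1.58 to 4.05), with overlapping intervals, while those in CD8 T cells, 22.2% and 32.1%, still did not overlap.

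Few T cells held both. Among thinned CD8 T cells of Spleen-Ctrl, 23 had Ly6c1 alone, 282 had Ly6c2 alone and 2 had both, where independence would give 7.40. In CD8 T cells of Spleen-shPrmt9 the counts were 20, 448 and 2, with 9.03 for independence. In CD4 T cells the counts were 133, 5 and 2 in Spleen-Ctrl and 168, 36 and 16 in Spleen-shPrmt9, with 2.24 and 13.4 for independence. In T cells with neither Cd4 nor Cd8, 3 cells held both in Spleen-Ctrl and 16 in Spleen-shPrmt9, with 9.98 and 17.8 for independence. At full depth the CD8 T cells with both numbered 14 in Spleen-Ctrl, with 25.6 for independence, and 32 in Spleen-shPrmt9, with 37.4. The CD4 T cells with both numbered 11, with 9.74 for independence, and 75 of 728, with 74.9. Those with neither Cd4 nor Cd8 numbered 13, with 23.0, and 79 of 753, with 81.4. The counts were thus lower than independence gives in CD8 T cells, by little in Spleen-shPrmt9 at full depth, and the thinned counts of CD8 T cells are 2 cells each. They were also lower in Spleen-Ctrl T cells with neither Cd4 nor Cd8. In CD4 T cells, and in Spleen-shPrmt9 T cells with neither, they were near what independence gives.

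**Figure D2:**
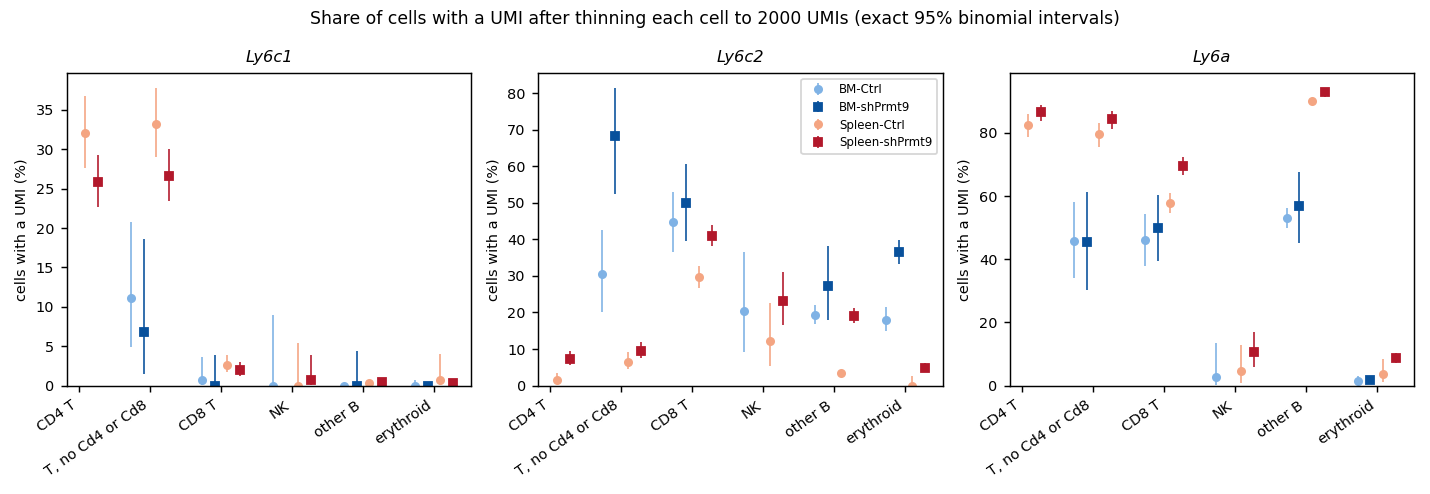
Share of cells with a UMI of Ly6c1, Ly6c2 or Ly6a (vertical axis, percent) by lymphoid type, with erythroid cells as a background, after thinning each cell to 2000 UMIs. Colours and shapes are the 4 libraries and bars are exact 95% binomial intervals. Ly6c1 reaches 33.3% in splenic T cells without Cd4 or Cd8 and 2.61% at most in CD8 T cells.

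Within CD8 T cells, Ly6c2 was higher and Ly6c1 lower in cells with a memory gene. Cells with a UMI of a memory or activation gene (Cd44, Il2rb, Eomes or Tbx21) had 552 CPM of Ly6c2 (535 to 569) in Spleen-Ctrl, against 150.1 (136 to 166) in cells without one. In Spleen-shPrmt9 these levels were 982 (963 to 1001) and 241 (225 to 259). Ly6c1 was at 7.76 CPM (5.85 to 10.1) with and 47.7 (39.7 to 56.9) without a memory gene in Spleen-Ctrl, and 9.46 (7.66 to 11.6) and 24.4 (19.3 to 30.4) in Spleen-shPrmt9. Ly6c1 in CD4 T cells was also lower with a memory gene, at 143 against 354 CPM in Spleen-Ctrl and 182 against 307 in Spleen-shPrmt9. Cells with a memory gene were deeper, with a median of 9619 against 7336.5 UMIs in CD8 T cells of Spleen-Ctrl. CD4 T cells with at least 2 regulatory markers (17 and 56 cells in spleen) had 61.5 CPM of Ly6c1 (28.1 to 117) and 110.0 (84.7 to 140.4).

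Ly6a was high in B and T cells, pDC and, in the hairpin libraries, also in monocytes. In BM-Ctrl it was highest in pDC, at 1923 CPM (1848 to 2001), then in T cells without Cd4 or Cd8 (737) and other B cells (665), whose intervals overlapped, and in precursor B cells it was 42.0 (31.3 to 55.2). Other B cells of the spleen had 1895 CPM in Spleen-Ctrl and 2394 in Spleen-shPrmt9. Plasma cells of Spleen-shPrmt9 had 2841 CPM, and monocytes and cDC of that library, at 1309.5 and 1147, stood apart from and above its CD8 T cells at 933. In BM-shPrmt9 the interval of monocytes, at 739 CPM, overlapped that of CD8 T cells at 679.5. Monocytes of BM-Ctrl had 245 CPM. Those of Spleen-Ctrl were too few to describe, so the spleen monocyte level has no control beside it. Splenic NK cells had 54.0 (40.2 to 71.0) and 79.8 (65.9 to 95.7), above the free RNA estimates of 33.9 and 44.6. Among cells outside the MA9 gate with at least 4 markers of stem and progenitor cells, Ly6a was 61.6 CPM (45.3 to 82.0) in 32 cells of BM-Ctrl and 361 (334 to 388) in 61 cells of BM-shPrmt9.

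Ly6e was measured in every type described. In BM-Ctrl it ran from 76.3 CPM in erythroid cells and 77.3 in immature neutrophils to 1771 in other B cells and 2493 in pDC. In Spleen-shPrmt9, MA9 cells, mature neutrophils, CD4 T cells, T cells without Cd4 or Cd8 and other B cells, from 1218 down to 1107 CPM, followed each other with overlapping intervals.

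Ly6d was above 1000 CPM in B-lineage cells and pDC and low in the other types. It was 5692 CPM (5562 to 5824) in pDC, 2728 (2685 to 2773) in other B cells and 2554 (2464 to 2645) in precursor B cells of BM-Ctrl, and below 9 CPM in every other type of that library. Plasma cells of Spleen-shPrmt9 had 1633 CPM (1558 to 1711) and other B cells of that library 1377 (1364 to 1389.8). In cDC of Spleen-shPrmt9 it was 105 CPM against a free RNA estimate of 104, and in CD4 T cells of that library 40.1 against 25.2, with 43.9% of the UMIs in 1 cell.

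Ly6g was a neutrophil gene, at 687 CPM (673 to 703) in mature and 454 (441 to 467) in immature neutrophils of BM-Ctrl. Neutrophil progenitors and MA9 cells of that library were at 34.1 (28.9 to 39.9) and 28.9 (27.9 to 29.98), and 72.1% of the Ly6g UMIs of those progenitors came from 1 cell. In splenic lymphocytes it was at most 1.06 CPM.

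Between the libraries, 86 of 108 possible ratios of shPrmt9 over Ctrl could be formed, in 11 cell types of BM and 7 of spleen with at least 30 cells in both, from at least 20 UMIs together. In BM 20 of 51 ratios were at least 2 and 7 were at most 0.5, and in spleen 9 of 35 were at least 2 and 0 at most 0.5. In the types with such a ratio, 4.06% to 15.9% of all genes were at least 2-fold higher in BM and 5.32% to 19.8% in spleen. At least 2-fold lower were 2.84% to 7.31% of all genes in such types of BM. The ratios repeat the same 6 genes over types of the same libraries and are not independent. Of the 20 higher ratios in BM, 14 had both levels above the free RNA estimate, and of the 9 in spleen 6 did. Of the 7 lower ratios in BM, 5 had neither level above it.

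**Figure D3:**
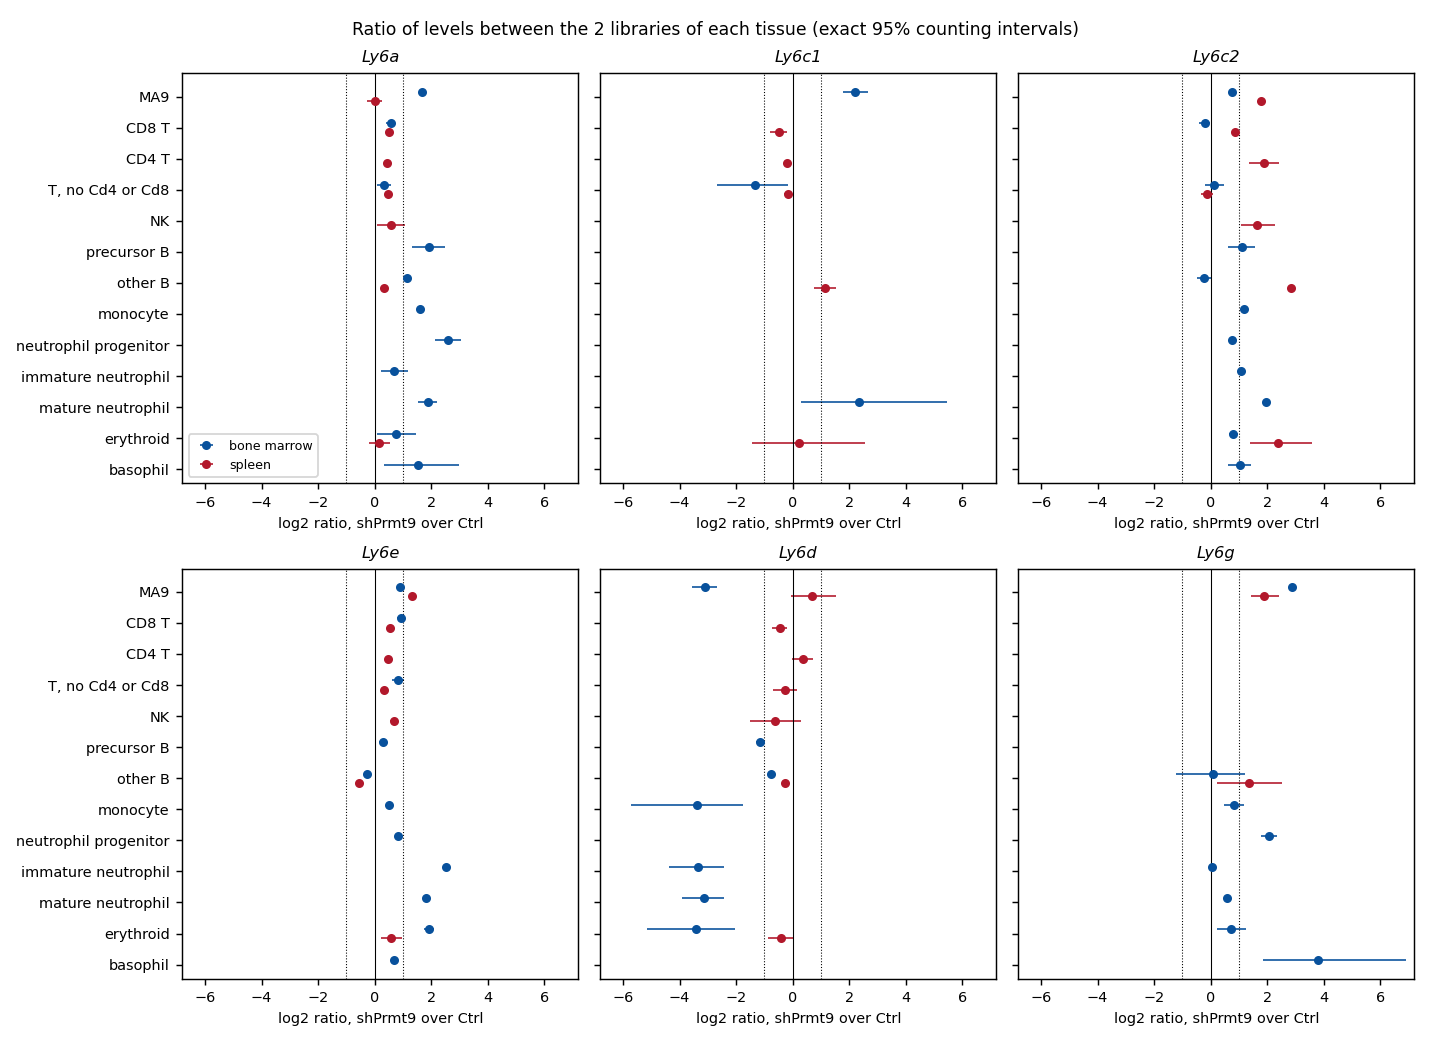
Log2 ratio of shPrmt9 over Ctrl (horizontal axis) for each gene and gated type, blue for BM and red for spleen, with exact 95% counting intervals. Dotted lines mark 2-fold. Ly6a and Ly6e lie mostly to the right of 0, Ly6e of other B cells to the left, and the low Ly6d ratios of BM types outside the B lineage rest on levels within the free RNA estimate.

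The MA9 gate stands for the leukemia cells that carry the hairpin. It did not read the hairpin itself, and host cells within it were not tested for. MA9 cells had higher levels of 5 of the 6 genes in BM-shPrmt9. At least 2-fold higher were 3 of them, where 13.1% of 14246 genes were. Ly6g went from 28.9 to 213 CPM, a ratio of 7.37 (7.09 to 7.67). Ly6a went from 20.1 to 64.8 CPM, a ratio of 3.22 (3.06 to 3.39), and the third was Ly6c1, at 0.573 and 2.65 CPM. Ly6c2 and Ly6e stayed within 2-fold, with ratios of 1.67 (1.66 to 1.68) and 1.88 (1.86 to 1.90). Ly6d, with 4.39 and 0.510 CPM, was the 1 member among the 7.05% of genes at least 2-fold lower, and both levels lay within the free RNA estimates of 5.22 and 0.683.

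In spleen MA9 cells, of which Spleen-Ctrl held 37 and Spleen-shPrmt9 179, 3 members were at least 2-fold higher where 12.4% of 9206 genes were. Ly6c2 was 3073 CPM (2984 to 3164) and 10480 (10390 to 10571), a ratio of 3.41 (3.31 to 3.52). Ly6e was 491 and 1218 CPM, a ratio of 2.48 (2.296 to 2.68), and Ly6g was 26.5 and 98.6, a ratio of 3.72 (2.68 to 5.30). Ly6a was 107 CPM in both libraries, but 58.2% of its UMIs in Spleen-Ctrl came from 1 cell, and the direction was not settled. Leaving out the top cell per library gave a ratio of 2.15 and requiring 1 more marker gave 3.59, whereas weighing every cell the same gave 0.534 and subtracting free RNA 0.473.

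Some MA9 cells also passed the neutrophil gate, 47 of 1669 in BM-Ctrl and 349 of 1934 in BM-shPrmt9. Ly6g in them was 268 CPM (238 to 299.7) and 475 (462 to 489). In the MA9 cells outside that gate it was 26.2 (25.2 to 27.2) and 185 (183 to 188), so the higher level was found in both subsets of BM. In Spleen-shPrmt9, 123 of the 179 MA9 cells also passed the neutrophil gate, with 114 CPM of Ly6g (103 to 126). The 56 MA9 cells outside it had 70.1 (58.2 to 83.8). The few MA9 cells of Spleen-Ctrl are not split here, so the spleen ratio of Ly6g is not given by subset. After thinning, 4.25% of MA9 cells of BM-Ctrl (3.34 to 5.34) and 24.1% of those of BM-shPrmt9 (22.2 to 26.1) had a Ly6g UMI, beside 1.51% and 3.38% of erythroid cells.

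Mature neutrophils of BM, whose origin from host or leukemia was not tested, had 4 members at least 2-fold higher with the hairpin in the leukemia, where 4.87% of 10531 genes were. Ly6c2 was 460.1 and 1792 CPM, a ratio of 3.89 (3.79 to 4.01). Ly6e was 318 and 1118 CPM, a ratio of 3.52 (3.40 to 3.64). Ly6a was 6.95 CPM (5.54 to 8.62), an interval that held the free RNA estimate of 6.11, and 25.4 CPM, and its ratio fell from 3.66 to 1.61, under 2-fold, with cells passing 2 gates kept. Ly6c1 rested on 2 and 20 UMIs, 85.0% of the latter in 1 cell, and its ratio of 5.02 was 1.507 without the top cell per library and 1.496 with every cell weighing the same. Ly6g was 687 and 1013 CPM, a ratio of 1.47 (1.44 to 1.51), and 57.7% and 71.1% of thinned cells held it.

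In immature neutrophils 2 members were at least 2-fold higher, where 4.06% of 10772 genes were. Ly6e was 77.3 CPM (72.0 to 82.9) and 446 (438 to 454), a ratio of 5.77 (5.37 to 6.20), and Ly6c2 was 924 and 1919.8, a ratio of 2.08 (2.03 to 2.12). Ly6g was 454 and 469 CPM, a ratio of 1.03 (0.999 to 1.07). In neutrophil progenitors Ly6a and Ly6g passed 2-fold, where 5.14% of 9894 genes did, at 12.2 and 72.7 CPM and at 34.1 and 143 CPM. Leaving out the top cell per library moved the Ly6g ratio from 4.19 to 12.5. Of the 55 Ly6a UMIs in BM-Ctrl, 38.2% came from 1 cell, and the free RNA estimate there was 7.51 CPM. The Ly6a ratio of 5.97 was 3.004 with 1 more marker required and 14.7 with free RNA subtracted. The median depth of the progenitors was 30244 UMIs in BM-Ctrl and 3054 in BM-shPrmt9, so the gate held cells of unlike depth, and its part in these ratios was not tested.

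Along the maturation steps of BM-Ctrl, from progenitor to immature to mature, Ly6c2 was 2798, 924 and 460.1 CPM, and Ly6g was 34.1, 454 and 687. With the hairpin Ly6c2 was 4754, 1919.8 and 1792 CPM and Ly6g 143, 469 and 1013. Ly6c2 was thus lower again at the last step in BM-Ctrl and differed little between the last 2 steps in BM-shPrmt9. Ly6e was lowest in the middle step in both, at 77.3 and 446 CPM. The neutrophils of Spleen-shPrmt9, 102 immature and 119 mature cells with too few in Spleen-Ctrl to compare, had 6233 and 4563 CPM of Ly6c2 and 214 and 412 of Ly6g.

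**Figure D4:**
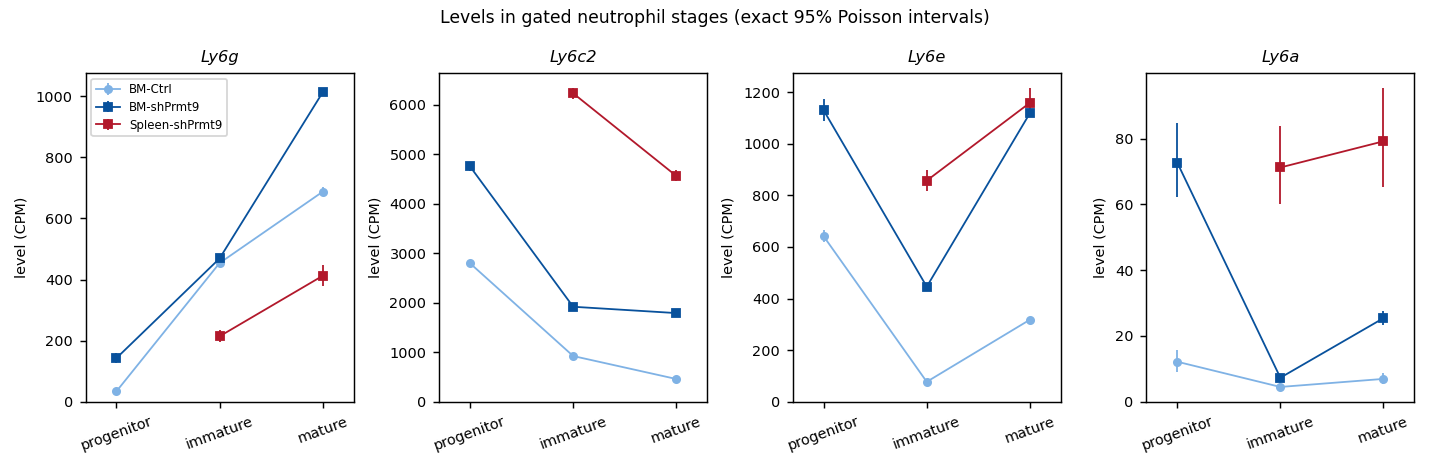
Levels of Ly6g, Ly6c2, Ly6e and Ly6a (vertical axis, CPM) in gated neutrophil progenitors, immature and mature neutrophils of BM-Ctrl, BM-shPrmt9 and Spleen-shPrmt9, with exact 95% Poisson intervals. Ly6g is higher and Ly6c2 lower at each later step shown in every library, and the Ly6c2 lines of the 2 hairpin libraries lie above that of BM-Ctrl.

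BM monocytes had 2 members at least 2-fold higher, where 7.21% of 11436 genes were. Ly6a was 245 CPM (236 to 254) and 739 (719 to 759), a ratio of 3.02 (2.89 to 3.16), and Ly6c2 was 1831 and 4146 CPM, a ratio of 2.264 (2.225 to 2.304). After thinning, 22.5% (19.3 to 25.9) and 49.6% (44.2 to 54.9) of the monocytes had a Ly6a UMI. The Ly6c2 shares were 76.3% and 80.8%, with overlapping intervals, at 2000 UMIs. At 1000 UMIs they were 61.5% (57.7 to 65.3) and 70.7% (65.7 to 75.4), whose intervals did not overlap. Ly6e was 1396 and 1969 CPM, within 2-fold. Basophils had 3 members past 2-fold, where 4.08% of 7533 genes were, namely Ly6a (8.77 and 25.6 CPM), Ly6c2 (86.5 and 176) and Ly6g (2.51 and 34.8). In BM-Ctrl none of these was above its free RNA estimate by its interval, since those of Ly6c2 and Ly6g were higher, at 154 and 5.49, and the interval of Ly6a reached down past its own, 5.31. With every cell weighing the same the Ly6a ratio was 1.79 and that of Ly6c2 1.89, both under 2-fold. Ly6e in basophils was 1344 and 2170.2 CPM, a ratio of 1.62 (1.502 to 1.74). In erythroid cells of BM, Ly6e (76.3 and 289 CPM) was past 2-fold, with a ratio of 3.79 (3.35 to 4.29), where 15.9% of 6452 genes were. The free RNA estimates were 53.7 and 42.7 CPM. That ratio was 2.24 with cells passing 2 gates kept and 10.9 with free RNA subtracted.

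In B-lineage cells some members were higher and others lower with the hairpin. Other B cells of BM had 665 CPM of Ly6a (643 to 687) in BM-Ctrl and 1475 (1402 to 1551) in BM-shPrmt9, a ratio of 2.22 (2.09 to 2.36), where 4.10% of 9936 genes were at least 2-fold higher. With every cell weighing the same the ratio was 1.92. In the cells with under 2 markers of marginal zone B cells, 888 and 55 in number, Ly6a was 659 CPM (636 to 682) and 1101 (1019 to 1189), less than 2-fold apart. The 101 cells of BM-Ctrl with at least 2 of these markers had 704 CPM, and such cells were too few in BM-shPrmt9 to describe. Over all other B cells of BM, Ly6d was 2728 and 1606 CPM, a ratio of 0.589 (0.559 to 0.620). Ly6e was 1771 and 1451 CPM there, a ratio of 0.819 (0.775 to 0.865). In other B cells of the spleen Ly6a had a ratio of 1.26 (1.25 to 1.28), Ly6d of 0.823 (0.813 to 0.832) and Ly6e of 0.689 (0.680 to 0.698). In both tissues, then, Ly6a was higher and Ly6d and Ly6e lower with the hairpin, all within 2-fold in spleen.

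The B cells of the 2 libraries differed in number and kind. BM held 989 and 83 other B cells and 171 and 31 precursor B cells. In spleen 1227 of 5908 and 511 of 1512 other B cells had at least 2 markers of marginal zone B cells. With these markers Ly6d was 1575 CPM in Spleen-Ctrl and 1629.5 in Spleen-shPrmt9, and under 2 markers it was 1722 and 1192, so the lower Ly6d was found in the second subset. Ly6e was lower in both subsets, at 1348 and 1160.3 CPM with the markers and 1736 and 1068 without. The part of this make-up in the B cell ratios was not tested beyond these values.

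Ly6c2 in other B cells of the spleen was 20.3 CPM (19.1 to 21.6) and 147 (142 to 151), a ratio of 7.21 (6.74 to 7.73), and 5.32% of 13100 genes were at least 2-fold higher there. The free RNA estimates were 5.26 and 43.3 CPM, so both levels lay above them. Ly6c1 (1.89 and 4.15 CPM, with free RNA estimates of 1.01 and 1.73) and Ly6g (0.239 and 0.606, with 0.0747 and 0.676) also passed 2-fold. Precursor B cells of BM, with 31 cells in BM-shPrmt9, had Ly6a at 42.0 and 158 CPM and Ly6c2 at 91.4 and 195 among the 4.48% of 7034 genes at least 2-fold higher, beside free RNA estimates of 291 and 126 for Ly6c2. Ly6d in them was 2554 and 1155 CPM, a ratio of 0.452 (0.405 to 0.504), among the 6.77% of genes at least 2-fold lower, and 1 cell gave 20.9% of the Ly6d UMIs in BM-shPrmt9. Their Ly6a rested on 51 UMIs in each library, of which 1 cell gave 29.4% in BM-Ctrl and 33.3% in BM-shPrmt9.

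T cells of the spleen had Ly6a and Ly6e higher by a similar factor in each subset. Ly6a was 653 and 933 CPM in CD8 T cells, 1215 and 1648 in CD4 T cells and 1233 and 1708 in T cells without Cd4 or Cd8, with ratios from 1.36 to 1.43. Ly6e ratios were from 1.27 to 1.45 in these subsets. Ly6c2 in CD8 T cells was 443 and 801 CPM, a ratio of 1.81 (1.74 to 1.87), and the ratio was above 1 both with and without a memory gene. In CD4 T cells Ly6c2 was 12.97 and 47.7 CPM, a ratio of 3.68 (2.58 to 5.38) where 6.10% of 9881 genes were at least 2-fold higher, but the second level lay within the free RNA estimate of 51.8. Ly6c1 ratios were 0.881 (0.809 to 0.959) in CD4 T cells and 0.888 (0.818 to 0.964) in T cells without Cd4 or Cd8. In CD8 T cells the ratio was 0.707 (0.571 to 0.875), and all of these lay within 2-fold.

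T cells of BM were fewer. CD8 T cells (151 and 94) had 530 and 1004 CPM of Ly6e, a ratio of 1.90 (1.71 to 2.10), and 458 and 679.5 of Ly6a, a ratio of 1.48 (1.32 to 1.66). Their Ly6c2, 453 and 389 CPM, had a ratio of 0.859 (0.749 to 0.984), beside free RNA estimates of 189 and 139. In BM T cells without Cd4 or Cd8, Ly6c1 was at least 2-fold lower, with 28 and 8 UMIs and a ratio of 0.396 (0.156 to 0.892), where 7.31% of 4544 genes were. A single cell gave 62.5% of the 8 UMIs. NK cells of the spleen had 31.7 and 99.0 CPM of Ly6c2, a ratio of 3.12 (2.09 to 4.79), where 12.3% of 7802 genes were at least 2-fold higher, and Ly6e in them was 585 and 943 CPM. In splenic erythroid cells Ly6c2, at 4.75 and 24.7 CPM, was the 1 member at least 2-fold higher, where 19.8% of 5358 genes were. Neither level was above its free RNA estimate by its interval, the first (2.05 to 9.37) holding its estimate of 4.34 and the second lying below 29.5.

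Outside the B lineage Ly6d was at least 2-fold lower in BM MA9 cells, monocytes (where 6.33% of genes were), immature neutrophils (6.32%), mature neutrophils (4.55%) and erythroid cells (2.84%), at 4.39 to 8.14 CPM in BM-Ctrl and 0.429 to 0.841 in BM-shPrmt9. All of these levels were within the free RNA estimates, in libraries whose other B cells numbered 989 and 83.

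The 12 interferon-stimulated genes chosen for comparison had a median ratio above 2 in each of these comparisons. Their median ratio was 6.53 in BM MA9 cells, 4.26 in BM monocytes, 7.89 in immature and 5.27 in mature neutrophils, 7.28 in spleen MA9 cells and 2.61 to 3.24 in the 3 T cell subsets of spleen, while the median log2 ratio of all genes tested lay between -0.26 and 0.25 over the 18 comparisons. As counted, Ly6a lay above 1 in all 18 comparisons, with a median ratio of 2.92 in BM and 1.36 in spleen. This did not hold under every alternative in 3 of them, where spleen MA9 cells (1.0007 as counted) went down to 0.473, splenic erythroid cells from 1.12 to 0.371 with cells passing 2 gates kept, and BM erythroid cells from 1.68 to 0.924 without the 5% of cells with most UMIs. Ly6e lay above 1 in 10 of 11 BM and 6 of 7 spleen comparisons, with other B cells as the exception in each tissue, and had medians of 1.76 and 1.45. In splenic erythroid cells its ratio of 1.495 turned to 0.592 with cells passing 2 gates kept. The list had 11 of 12 genes at least 2-fold higher in other B cells of BM and 10 of 12 in those of spleen, where Ly6e was lower.

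**Figure D5:**
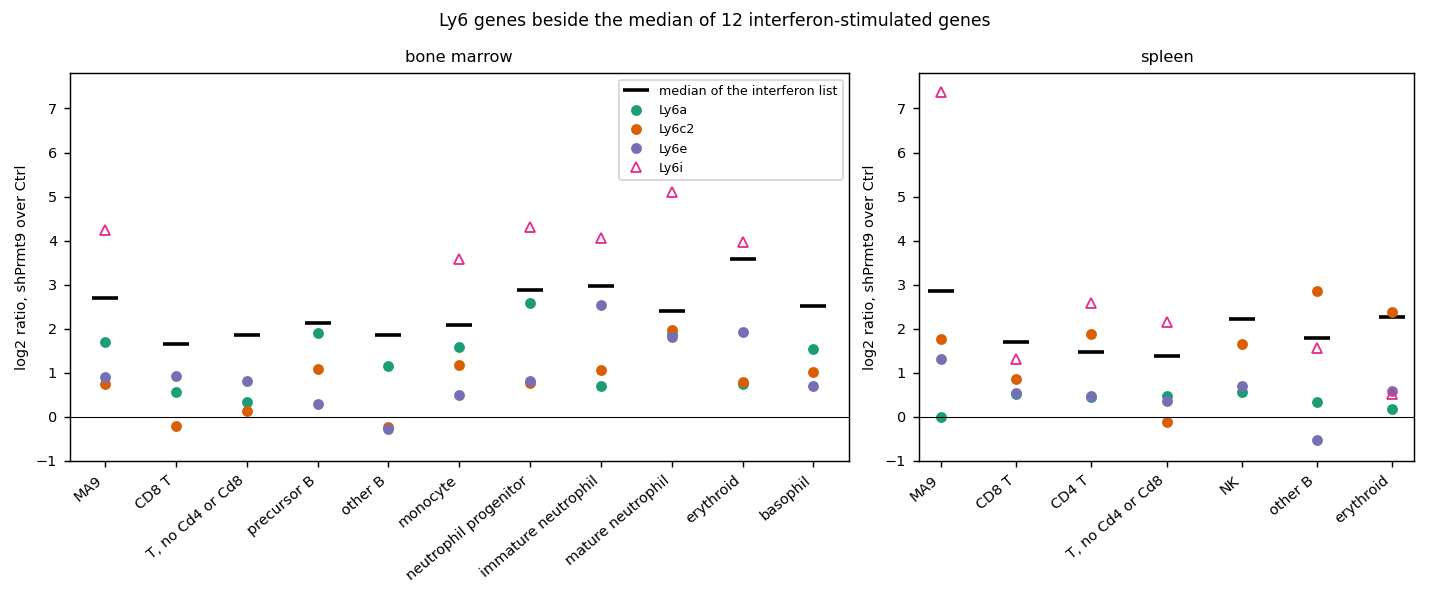
Log2 ratio of shPrmt9 over Ctrl (vertical axis) of Ly6a, Ly6c2, Ly6e and Ly6i beside the median of 12 interferon-stimulated genes (black bars) in each gated type of BM and spleen. The medians lie above 1 everywhere, and Ly6e of other B cells lies below 0. Where it is shown, Ly6i lies above the median except in CD8 T cells, other B cells and erythroid cells of spleen.

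Of 37 other genes of the family searched for, 35 were in the matrices, 8 had at least 200 UMIs over the 4 libraries and 6 had 0. Ly6i, a neighbour in the same cluster that monocytes and macrophages carry, differed most between the libraries. It was 64.2 and 774 CPM in BM monocytes, a ratio of 12.04 (11.2 to 12.98), 2.68 and 92.3 CPM in mature neutrophils, a ratio of 34.4 (24.3 to 50.5), and 1831 CPM (1760 to 1904) in monocytes of Spleen-shPrmt9. In spleen MA9 cells it rested on 2 and 1100 UMIs. Plaur, the urokinase receptor, was highest in immature neutrophils of Spleen-shPrmt9 (583 CPM), Lynx1 in other B cells of BM-Ctrl (67.1), Cd59a, an inhibitor of complement, in erythroid cells of BM-Ctrl (41.5), and Ly6k in CD8 T cells of Spleen-shPrmt9 (11.5). Ly6g5b peaked in MA9 cells of Spleen-shPrmt9 (10.8 CPM), Ly6m in precursor B cells of BM-shPrmt9 (9.29, with an interval of 1.92 to 27.1) and Lypd6b in BM-shPrmt9 T cells without Cd4 or Cd8 (6.78).

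The genes whose pattern over the 43 groups was most like each member were found by Pearson correlation of log2(CPM + 10), among 11751 genes with at least 500 UMIs. Ly6d was followed most closely by the B cell genes Iglc3 (r = 0.969) and Blnk (0.966) and by its relative Lynx1 (0.948). Ly6g was followed by Mapk13 (0.943), Pram1 (0.942) and Wfdc21 (0.935). Ly6c1 was followed by the T cell genes Trat1 (0.928), Tnfrsf4 (0.907) and Tnfrsf25 (0.887). The closest genes were less alike for Ly6a (Phf11b, 0.867, Slc41a1, 0.852, and Il6st, 0.845), Ly6e (Psmb9, a subunit of the immunoproteasome, 0.850, H2-M3, 0.841, and Atf7, 0.840) and Ly6c2 (Aldh3b1, 0.841, Atp6v0c, 0.820, and Tom1, 0.820). Among the members themselves the highest r was 0.61, between Ly6c2 and Ly6g, and that of the near-identical Ly6c1 and Ly6c2 was -0.345. The 43 groups share 4 libraries and are not independent points.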

How the data were processed

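BM and spleen cells of 4 groups were profiled with 10x Genomics 3′ chemistry, 1 library per group. The authors deposited raw UMI counts per gene and barcode, made with Cell Ranger (6.0.2 in the file headers, 6.1.1 in the submitters' processing notes) on mm10. The genes and lists used here were chosen with earlier results of these data known.

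Barcodes were kept from 200 detected genes up and to 20% mitochondrial counts, then gated by distinct markers and their summed CPM. MA9 cells had at least 3 of Hoxa9, Hoxa10, Hoxa7, Hoxa5, Meis1 and Pbx3. Cells passing 2 unrelated gates (3.13% to 7.01%) were left out, which also removes some doublets, and no doublet caller was run. Counts were summed per type and library with Python 3 tools (numpy, scipy, pandas), and the ratio script was tested on simulated data. A ratio of 2 counts has an exact conditional 95% interval. With 1 library per group no test was possible, and a ratio past 2-fold was counted as called. The named genes are the 6 members, family genes with at least 200 UMIs, and the 3 most correlated genes per member. Positions and coding sequences come from GENCODE M21 and promoters from RefSeq. Alternatives are described in the closing section.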

Additional observations from a re-analysis of the deposited data

Results flagged for a closer look

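Ly6c2 in CD8 T cells lay on opposite sides of 1 in the 2 tissues. The ratio of shPrmt9 over Ctrl was 0.859 (0.749 to 0.984) in BM and 1.81 (1.74 to 1.87) in spleen. The difference was not tested, since each tissue has 1 library per group and the tissues differ in host sex. In BM the free RNA estimate came to 189 CPM of the 453 in BM-Ctrl and 139 of the 389 in BM-shPrmt9, against 4.88 of 443 and 36.3 of 801 in spleen. With cells passing 2 gates kept the BM ratio was 1.75.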

How the results depend on the processing

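The number of BM ratios of at least 2 was 18 to 21 and that of spleen 8 to 11 over the 8 alternatives, against 20 and 9. Of the 36 ratios past 2-fold in either direction, 5 came back within 2-fold with cells passing 2 gates kept, 4 with every cell weighing the same, 4 without the highest cell of each library, 2 with 1 more marker required and 1 without the 5% of cells with most UMIs. Among these were Ly6a in precursor B cells of BM (3.76 to 1.896 with cells passing 2 gates kept), in mature neutrophils of BM (3.66 to 1.61, likewise) and in basophils (2.92 to 1.79 with every cell weighing the same), and Ly6g in other B cells of spleen (2.53 to 1.60 without the highest cell). Ly6a ratios within 2-fold that fell below 1 were those of spleen MA9 cells (0.473 to 0.868 in 3 alternatives), splenic erythroid cells (0.371) and BM erythroid cells (0.924). The BM ratios of at most 0.5 numbered 7 in each alternative except free RNA subtracted, where 2 were left of the 39 that could be formed. In spleen these numbered 0, but 5 with cells passing 2 gates kept, 1 with free RNA subtracted and 1 without the 5% of cells with most UMIs. Ly6c2 in precursor B cells of BM turned to 0.642 with 1 more marker required and 0.987 with cells passing 2 gates kept. Ly6c1 turned to 0.747 in mature neutrophils of BM without the 5% of cells with most UMIs, and to 0.867 in other B cells of spleen with cells passing 2 gates kept. Among shares in splenic erythroid cells, the ratio turned at 1000 UMIs to 0.958 for Ly6a and 1.51 for Ly6d. The causes were not tested. TMM scaling changed no call. Its log2 factor was -0.28 in immature and -0.26 in mature neutrophils of BM, where the median log2 ratio of all genes was -0.26 and -0.24, so ratios there are higher by that amount relative to the median gene. Levels at or below the free RNA estimate limit what Ly6c2 shows in BM lymphocytes and Ly6d outside the B lineage. No paired analysis was possible because each group has 1 library.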
